A study of Rattus norvegicus with 8 samples.

Results

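The genes described here are 38 type I interferon response genes, chosen by symbol from a list of interferon-stimulated genes and their transcription factors. Of these, 37 had an entry among the 28546 in the count table, and 32 had counts high enough to be tested, of 14445 tested genes in all. They were measured by RNA-seq in cultured astrocytes from Sprague Dawley rat pups. All 8 libraries come from astrocytes that met the brain-metastatic melanoma line 12-273 BM or its medium. Control libraries (n = 2) had melanoma cells with the scrambled hairpin Scr. The sh-APP libraries (n = 3) had melanoma cells with shAPPa, a hairpin that targets APP, which encodes the precursor of amyloid beta. For the anti-Abeta libraries (n = 3) the hairpin was again Scr, with an anti-amyloid beta antibody added. No group without melanoma exposure is among these libraries, so every difference below is between 2 melanoma-exposed states. The labels give the exposure as a co-culture, as 24 hours in melanoma-conditioned medium, and as astrocyte medium placed on melanoma cells, and these accounts could not be reconciled. Each hairpin group stands for a single hairpin and a single melanoma line, and separate cultures are not stated for the replicates, so the p-values reflect the spread among these libraries alone, which may be technical.

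Type I interferons are secreted when cells sense foreign or misplaced nucleic acid. They bind a receptor of Ifnar1 and Ifnar2, whose kinases Jak1 and Tyk2 phosphorylate STAT factors, Stat2 among them. Joined by Irf9, these form a complex that binds the interferon-stimulated response element (ISRE) in the promoters of the response genes. In the brain, astrocytes both make and answer interferon, and a low tonic signal keeps part of these genes expressed at rest.

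Libraries held between 34250464 and 47831595 counts, and levels are given as CPM, counts scaled to a common library size after TMM factors, which correct totals for composition. The astrocyte markers Gfap, Aqp4, Slc1a3 and Gja1 had group means between 1680 and 6530 CPM. Of 13 microglia and macrophage markers, 11 were under 1 CPM in every library, Cx3cr1 was at 0 counts, and P2ry12 had 10 counts in the 8 libraries together. The summed level of that list was 110 to 126 CPM in control, 78.8 to 80.2 in sh-APP and 90.6 to 108 in anti-Abeta. Summed levels of 7 neuron markers were 331 to 357, 152 to 164 and 224 to 290 CPM in the same order. Map2 and Snap25 made up most of that sum, and in sh-APP 3 of the 7 fell and 3 rose (Rbfox3, Tubb3 and Stmn2). The melanocyte list summed to 4370 to 4450, 2280 to 2480 and 3580 to 3870 CPM, nearly all of it Gpnmb. Of its 5 tested genes, 3 were called lower in sh-APP and 1 higher. The log2 fold changes were -0.91 for Gpnmb, -1.74 for Slc24a5, -0.62 for Mitf and 0.59 for S100a1. Other sums were higher in sh-APP, those of oligodendrocyte lineage markers at 2310 to 2390, 2740 to 2890 and 2690 to 3020 CPM, and those of pericyte and fibroblast markers at 18.9 to 23.1, 30.4 to 33.1 and 21.0 to 26.3 CPM. Astrocyte markers summed to 15800 to 16200, 17100 to 19500 and 13900 to 14900 CPM, and endothelial ones to at most 5.54 CPM. The astrocyte sum rests much on Gfap, with means of 2910 CPM in control, 6530 in sh-APP and 3730 in anti-Abeta. Gja1 went the other way, at 3680, 2150 and 2640 CPM. Of the 10 astrocyte markers, 7 were called higher in sh-APP and 1 lower. The part of these shifts in the results below was not tested, and in bulk RNA fewer cells of a type and less RNA per cell cannot be told apart. Anti-Abeta replicate 2 stood farthest from its group, where the chi-square of replicate counts over its degrees of freedom was 30.9 and 45.8 in its pairs and 17.1 to 20.4 in the other pairs.

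Promoters of 6 genes are shown, from 250 bases before to 50 after the annotated start. They belong to the 5 genes whose sh-APP call held under every alternative processing (Eif2ak2, Ifi44, Ifih1, Stat2 and Trim25) and to Irf7, the factor that amplifies the response. The sequences are RefSeq's, of rat build GRCr8, which is later than the rn6 build of the counts. Eif2ak2 lies at chr6:21940904-21941203 (plus strand), Ifi44 at chr2:243303791-243304090 (minus), Ifih1 at chr3:67683919-67684218 (minus), Irf7 at chr1:205799974-205800273 (minus), Stat2 at chr7:1286840-1287139 (plus) and Trim25 at chr10:74309774-74310073 (plus). Capitals mark each match to the core of the ISRE, GAAANNGAAA, on either strand.
Eif2ak2: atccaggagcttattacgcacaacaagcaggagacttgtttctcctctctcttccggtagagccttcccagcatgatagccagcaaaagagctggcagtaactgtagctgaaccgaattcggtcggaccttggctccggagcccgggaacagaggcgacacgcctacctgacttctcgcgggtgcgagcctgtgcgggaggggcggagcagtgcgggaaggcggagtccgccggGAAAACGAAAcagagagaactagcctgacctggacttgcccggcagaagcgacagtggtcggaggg
Ifi44: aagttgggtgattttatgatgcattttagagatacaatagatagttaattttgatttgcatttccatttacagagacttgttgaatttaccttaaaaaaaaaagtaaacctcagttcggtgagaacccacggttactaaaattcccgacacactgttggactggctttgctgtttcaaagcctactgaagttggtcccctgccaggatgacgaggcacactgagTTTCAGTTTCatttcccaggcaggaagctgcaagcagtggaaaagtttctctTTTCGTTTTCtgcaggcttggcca
Ifih1: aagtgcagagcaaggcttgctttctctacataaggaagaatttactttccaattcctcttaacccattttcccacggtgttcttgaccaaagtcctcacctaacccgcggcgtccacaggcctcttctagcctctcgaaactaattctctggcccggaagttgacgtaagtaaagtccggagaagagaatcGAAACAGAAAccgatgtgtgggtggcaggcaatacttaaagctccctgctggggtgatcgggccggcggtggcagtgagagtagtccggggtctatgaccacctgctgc
Irf7: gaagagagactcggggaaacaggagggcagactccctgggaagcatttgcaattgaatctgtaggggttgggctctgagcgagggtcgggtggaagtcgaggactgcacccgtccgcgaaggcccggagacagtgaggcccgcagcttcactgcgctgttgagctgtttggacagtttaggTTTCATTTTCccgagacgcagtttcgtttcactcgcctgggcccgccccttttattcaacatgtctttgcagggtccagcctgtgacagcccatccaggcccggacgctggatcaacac
Stat2: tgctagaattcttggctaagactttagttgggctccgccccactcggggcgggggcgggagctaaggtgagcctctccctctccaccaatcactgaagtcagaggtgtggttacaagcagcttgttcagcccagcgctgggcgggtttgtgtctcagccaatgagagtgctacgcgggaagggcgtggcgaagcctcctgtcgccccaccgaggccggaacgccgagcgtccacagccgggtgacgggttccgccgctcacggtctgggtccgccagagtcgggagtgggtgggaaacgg
Trim25: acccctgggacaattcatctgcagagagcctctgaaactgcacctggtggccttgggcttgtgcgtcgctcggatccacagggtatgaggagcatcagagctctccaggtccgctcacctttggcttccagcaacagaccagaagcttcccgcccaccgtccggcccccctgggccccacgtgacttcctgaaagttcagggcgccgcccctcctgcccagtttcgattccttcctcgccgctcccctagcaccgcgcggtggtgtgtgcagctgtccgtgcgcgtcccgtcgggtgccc

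The ISRE core match began 16 bases before the start in Eif2ak2, 59 in Ifih1 and 69 in Irf7, and 26 in Ifi44, which held a further match after the start. Stat2 and Trim25 held none in this window. Of the 28 listed genes with a promoter in the RefSeq table, 19 held the core (67.9%), against 3.77% of 27457 promoters of the same length. The GAS core TTCNNNGAA, the element of the interferon gamma response, which reads the same on both strands and was searched without regard to overlap with the ISRE, was in 8 of 28 (28.6%) against 8.68% of all promoters. By behaviour in sh-APP against control, the ISRE core was in 4 of 7 promoters of genes that fell, in 2 of 4 of genes that rose, and in 10 of 14 of tested genes that did not pass. Genes that rose and genes that fell thus both included promoters with the core and promoters without it. A match is a stretch of letters and was not tested for binding.

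The first comparison asks which response genes differed when the melanoma cells carried the hairpin against the amyloid precursor gene. Of the 32 tested genes, 4 rose (Stat2, Irf7, Trim25 and Ifi27) and 8 fell (Eif2ak2, Ifi44, Ifih1, Rsad2, Cmpk2, Rtp4, Parp9 and Irf9) by edgeR's quasi-likelihood test at an adjusted p under 0.05. That is 37.5% of them, while 53.7% of all tested genes were called in this comparison (25.8% higher and 27.9% lower). Of the listed genes 12.5% were higher and 25.0% lower, so the share lower was near the background. Their median log2 fold change was -0.26, against 0.03 over all tested genes, and single values ran from -2.46 to 1.74. The highest value is that of Ifi47, which reached the count filter in no control library and in 3 of sh-APP, and which did not pass. With library totals alone as the scaling, the genes called were 5 higher and 4 lower, and the share of higher among called genes over the whole table moved from 48% to 62.6%. That scaling moved the median of all genes by 0.20, and the listed genes' median stayed below it by 0.28, against 0.29 with TMM. The ranges of the 2 groups did not overlap for 19 of the 32 genes, 7 higher (Ifi47 among them) and 12 lower. Over all tested genes the share was 70.7% (35.7% higher and 35.0% lower).

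**Figure D1:**
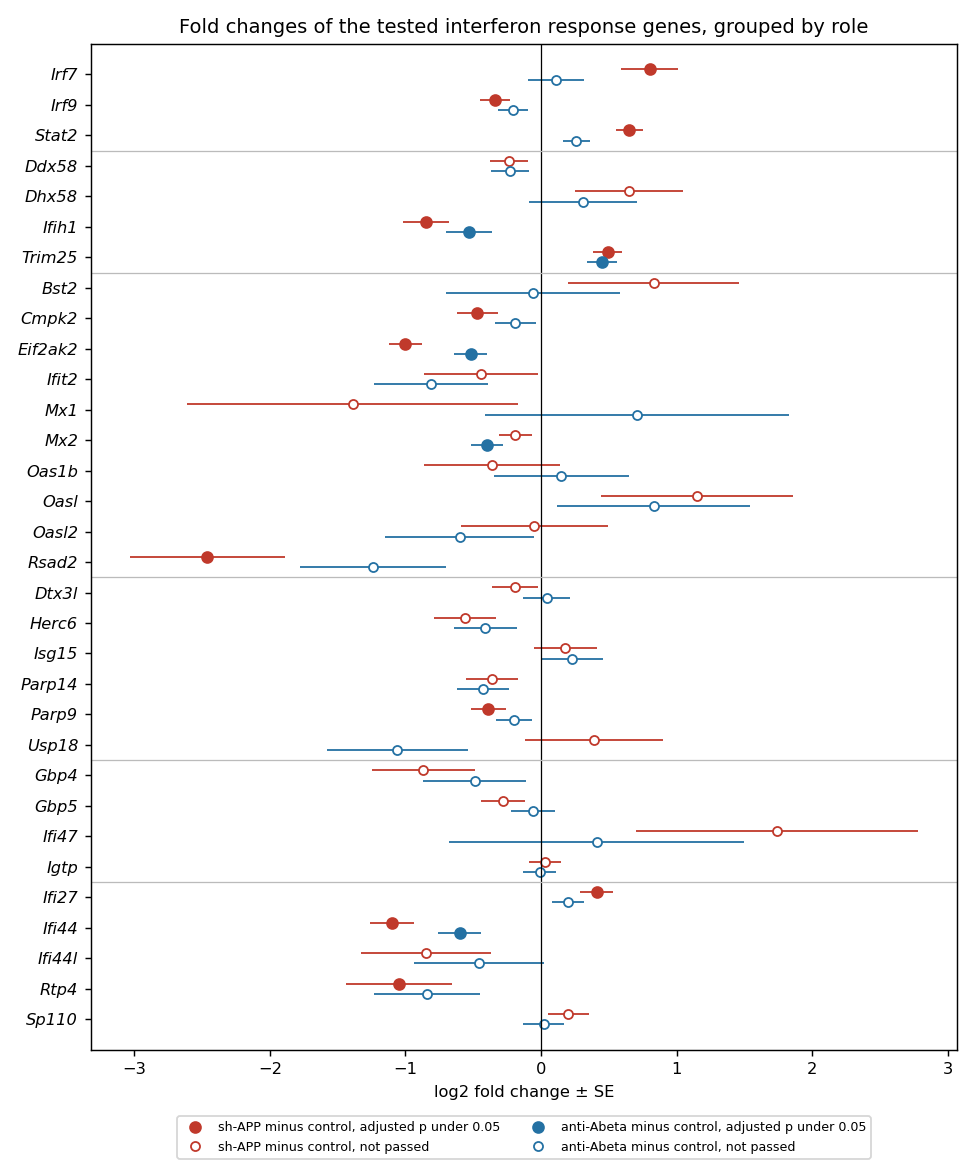
Log2 fold change with its standard error (x axis) of the 32 tested interferon response genes (y axis, grouped by role) for sh-APP minus control and anti-Abeta minus control, which share the control libraries. Filled points passed an adjusted p of 0.05: 12 genes in sh-APP, from Rsad2 at -2.46 to Irf7 at 0.80, and 5 in anti-Abeta, from Ifi44 at -0.60 to Trim25 at 0.45.

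The 3 transcription factors did not move together. Stat2, a subunit of the ISRE-binding complex, stood at 45.3 and 51.6 CPM in control, at 80.9, 68.8 and 78.2 in sh-APP, and at 58.9, 61.7 and 53.4 in anti-Abeta. Every sh-APP library was above every other library, and the anti-Abeta libraries lay between. The log2 fold change of Stat2 in sh-APP against control was 0.65 ± 0.10 (SE; adjusted p = 0.000186, edgeR), and it held under all 18 alternatives. Irf7, which drives the second wave of interferon genes, stood at 3.0 and 2.65 CPM in control, at 4.56, 4.37 and 5.81 in sh-APP, and at 3.14, 3.18 and 2.83 in anti-Abeta. Its sh-APP libraries lay above all others while control and anti-Abeta overlapped. Irf7 rose by 0.80 ± 0.21 (adjusted p = 0.00715, edgeR), which no longer passed once control replicate 2 was left out (adjusted p = 0.0550; range over the alternatives 0.00134 to 0.0550).

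Irf9, the DNA-binding subunit of the same complex, went the other way. It stood at 32.3 and 39.1 CPM in control, at 29.6, 26.6 and 28.8 in sh-APP, and at 29.8, 34.1 and 29.0 in anti-Abeta. All sh-APP values were below both control values, by a narrow gap, and anti-Abeta overlapped both groups. Irf9 fell by 0.34 ± 0.11 (adjusted p = 0.0257, edgeR). That call was lost without control replicate 2 (log2 fold change -0.17, adjusted p = 0.349), without sh-APP replicate 2 (0.0802), with upper-quartile factors (0.0814), with library totals alone (-0.13, 0.36) and with the replicate number as a block (0.0530), over a range of 0.0132 to 0.36.

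Among the sensors of cytosolic nucleic acid, Ifih1 (MDA5, which binds long double-stranded RNA) stood at 19.4 and 22.9 CPM in control, at 10.5, 13.5 and 11.1 in sh-APP, and at 13.4, 17.8 and 12.7 in anti-Abeta. Both control values were above the other 6 libraries. Ifih1 fell in sh-APP by 0.85 ± 0.17 (adjusted p = 0.000909, edgeR) under all alternatives. Trim25, the ubiquitin ligase that activates RIG-I, stood at 14.2 and 15.5 CPM in control, at 19.6, 20.8 and 22.2 in sh-APP, and at 19.2, 20.3 and 21.1 in anti-Abeta. Both treated groups were above control and overlapped each other. Trim25 rose in sh-APP by 0.49 ± 0.11 (adjusted p = 0.00290, edgeR) under all alternatives.

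RIG-I itself, entered as Ddx58, binds short RNA with a 5' triphosphate and did not pass. It stood at 12.4 and 11.7 CPM in control, at 10.3, 10.8 and 9.45 in sh-APP, and at 9.08, 11.1 and 10.5 in anti-Abeta, with a log2 fold change of -0.24 ± 0.14 in sh-APP (adjusted p = 0.177, edgeR). Control values were the highest, by a margin near the spread within groups. Dhx58 (LGP2, a regulator of the other sensors) stood at 1.28 and 0.972 CPM in control, at 1.94, 1.22 and 2.15 in sh-APP, and at 1.06, 2.05 and 1.08 in anti-Abeta, all groups overlapping. Zbp1, which binds Z-form nucleic acid, had 1 count in the 8 libraries together.

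The largest group, 14 antiviral effectors, had 10 tested members, of which 3 fell in sh-APP (Eif2ak2, Rsad2 and Cmpk2) and 7 did not pass. Over all tested genes 27.9% were called lower and 25.8% higher, so the share that fell was near the background. Eif2ak2 (PKR), the kinase that halts translation on double-stranded RNA, stood at 104 and 97.6 CPM in control, at 42.6, 51.7 and 57.4 in sh-APP, and at 61.4, 78.8 and 71.2 in anti-Abeta. The 3 groups did not overlap, with control highest and sh-APP lowest. Eif2ak2 fell by 1.00 ± 0.12 in sh-APP (adjusted p = 3.85e-05, edgeR) under all alternatives, and it overlaps 2 uncharacterised genes on the later assembly. Rsad2 (viperin, which makes a chain-terminating nucleotide) stood at 3.53 and 1.59 CPM in control, at 0.251, 0.514 and 0.618 in sh-APP, and at 0.400, 1.59 and 1.22 in anti-Abeta. In CPM its control libraries differed from each other by more than the sh-APP libraries did, but not as a ratio of highest to lowest. All sh-APP values lay below control. Rsad2 fell by 2.46 ± 0.57 (adjusted p = 0.00272, edgeR), a call lost without control replicate 1 (log2 fold change -1.77, adjusted p = 0.0674, with 0.000103 to 0.0674 over the alternatives).

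Cmpk2, a nucleotide kinase that lies next to Rsad2 on the chromosome, stood at 16.8 and 24.0 CPM in control, at 15.4, 14.7 and 14.2 in sh-APP, and at 16.3, 19.6 and 17.8 in anti-Abeta. Control replicate 2 was the highest library and control replicate 1 was close to the treated ones. Cmpk2 fell by 0.47 ± 0.15 in sh-APP (adjusted p = 0.0199, edgeR). The call was lost without control replicate 2 (log2 fold change -0.17, adjusted p = 0.435), without sh-APP replicate 3 (0.0560) and under scaling by totals alone (-0.26, 0.156), over a range of 0.00495 to 0.435.

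Several members had few counts. Ifit1 and Ifit3, which bind foreign RNA caps or their partners, had 7 and 13 counts in the 8 libraries together. The oligoadenylate synthetases Oas1a and Oas2, which switch on RNase L, had 16 and 1. These 4 genes and Zbp1 were not tested. Mx1, a GTPase that blocks viral replication, had 0 to 25 counts a library and passed the count filter in 1 control and 2 anti-Abeta libraries only. Mx1 was tested and did not pass in any comparison. Its log2 fold change was -1.39 ± 1.22 in sh-APP and 0.71 ± 1.12 in anti-Abeta (adjusted p = 0.363 and 0.671, edgeR). For sh-APP against anti-Abeta it was -2.1 ± 1.07 (0.174). Its relative Mx2 had control values of 27.7 and 36.1 CPM and sh-APP values of 27.1, 28.2 and 28.4, which overlapped (log2 fold change -0.19 ± 0.12, adjusted p = 0.183, edgeR). That value passed only without control replicate 1 (-0.36, adjusted p = 0.0333, with 0.0333 to 0.962 over the alternatives). Ifit2, Oas1b, Oasl, Oasl2 and Bst2 had no library above 2.51 CPM and did not pass in any comparison.

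Of the genes for protein modification, the ubiquitin-like Isg15 stood at 3.59 and 3.46 CPM in control, at 3.72, 4.52 and 3.73 in sh-APP, and at 5.22, 3.62 and 3.59 in anti-Abeta. Isg15 had a log2 fold change of 0.18 ± 0.23 in sh-APP and 0.23 ± 0.23 in anti-Abeta (adjusted p = 0.529 and 0.479, edgeR). In sh-APP 1 of the 6 genes of this group passed, beside 53.7% of all tested genes. This was Parp9, an ADP-ribosyltransferase that works with the ligase Dtx3l. It stood at 39.8 and 41.3 CPM in control, at 27.9, 33.5 and 31.2 in sh-APP, and at 32.5, 42.1 and 31.2 in anti-Abeta. Anti-Abeta replicate 2 was at the control level and the other treated libraries were below it. Parp9 fell by 0.39 ± 0.13 in sh-APP (adjusted p = 0.0224, edgeR), and the call was lost without control replicate 1 (0.0875) or 2 (0.132), without sh-APP replicate 1 (0.0735), with upper-quartile factors (0.0552) and under scaling by totals alone (-0.19, 0.202), over a range of 0.00458 to 0.202.

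Dtx3l, which overlaps Parp9 on the chromosome, differed by -0.19 ± 0.17 in sh-APP (adjusted p = 0.359, edgeR). Parp14, the next gene, had -0.36 ± 0.19 (0.139), and Herc6, the ligase that attaches Isg15 in rodents, -0.56 ± 0.23 (0.0620). For these 3 genes all sh-APP libraries were below control, without passing. The 4 interferon-induced GTPases Gbp4, Gbp5, Ifi47 and Igtp, which attack vacuoles that hold pathogens, gave 0 calls in any comparison by edgeR, DESeq2 or limma-voom. Over all tested genes edgeR called 53.7% in sh-APP, 29.2% in anti-Abeta and 26.1% between the arms. With only 4 genes, 0 calls says little about the group. At an unadjusted p under 0.05 only Gbp4 in sh-APP was lower, at -0.87 ± 0.38 (adjusted p = 0.0747, edgeR), with control libraries at 2.11 and 5.40 CPM. Without control replicate 1 Gbp4 passed (-1.39, adjusted p = 0.0128, range 0.0128 to 0.968) and so did Gbp5 (-0.50, against -0.28 with it, adjusted p = 0.0420, range 0.0420 to 0.951). Igtp was the steadiest of the 4, at 22.7 to 29.5 CPM over the 8 libraries. Ifi47 reached the count filter in no control library, in 3 of sh-APP and in 1 of anti-Abeta, at 0 to 0.707 CPM.

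Among the other induced genes, Ifi44, a microtubule-associated protein of the response, stood at 16.0 and 16.5 CPM in control, at 7.14, 7.65 and 7.97 in sh-APP, and at 12.0, 11.8 and 8.52 in anti-Abeta. The 3 groups did not overlap, with anti-Abeta in the middle. Ifi44 fell by 1.1 ± 0.16 in sh-APP (adjusted p = 0.000112, edgeR) under all alternatives. Its neighbour Ifi44l had control values of 2.0 and 0.810 CPM and sh-APP values of 1.00, 0.707 and 0.618, which overlapped (adjusted p = 0.160, edgeR). Ifi27, a mitochondrial protein linked to cell death, stood at 29.9 and 38.3 CPM in control, at 45.5, 46.1 and 44.1 in sh-APP, and at 42.2, 33.7 and 41.4 in anti-Abeta. The sh-APP libraries were the 3 highest. Ifi27 rose by 0.41 ± 0.12 (adjusted p = 0.0153, edgeR), a call lost without control replicate 1 (log2 fold change 0.25, adjusted p = 0.182, with 0.00124 to 0.182 over the alternatives).

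Rtp4, a receptor chaperone, stood at 2.39 and 3.13 CPM in control, at 2.01, 0.729 and 1.26 in sh-APP, and at 1.28, 2.03 and 1.32 in anti-Abeta, with control above all other libraries. It fell by 1.05 ± 0.39 in sh-APP (adjusted p = 0.0392, edgeR). The call was lost without control replicate 1 (0.0765) or 2 (0.229), without sh-APP replicate 2 (0.112) or 3 (0.0894), with upper-quartile factors (0.0519), library totals alone (0.0770) and the replicate block (0.0745), over a range of 0.00864 to 0.229. Rtp4 overlaps Masp1 on the later assembly. Sp110, a nuclear body protein that overlaps Sp140, differed by 0.20 ± 0.15 (adjusted p = 0.279, edgeR) and passed under scaling by totals alone (0.40, adjusted p = 0.0340, range 0.0340 to 0.698). Xaf1 is not analysed here.

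**Figure D2:**
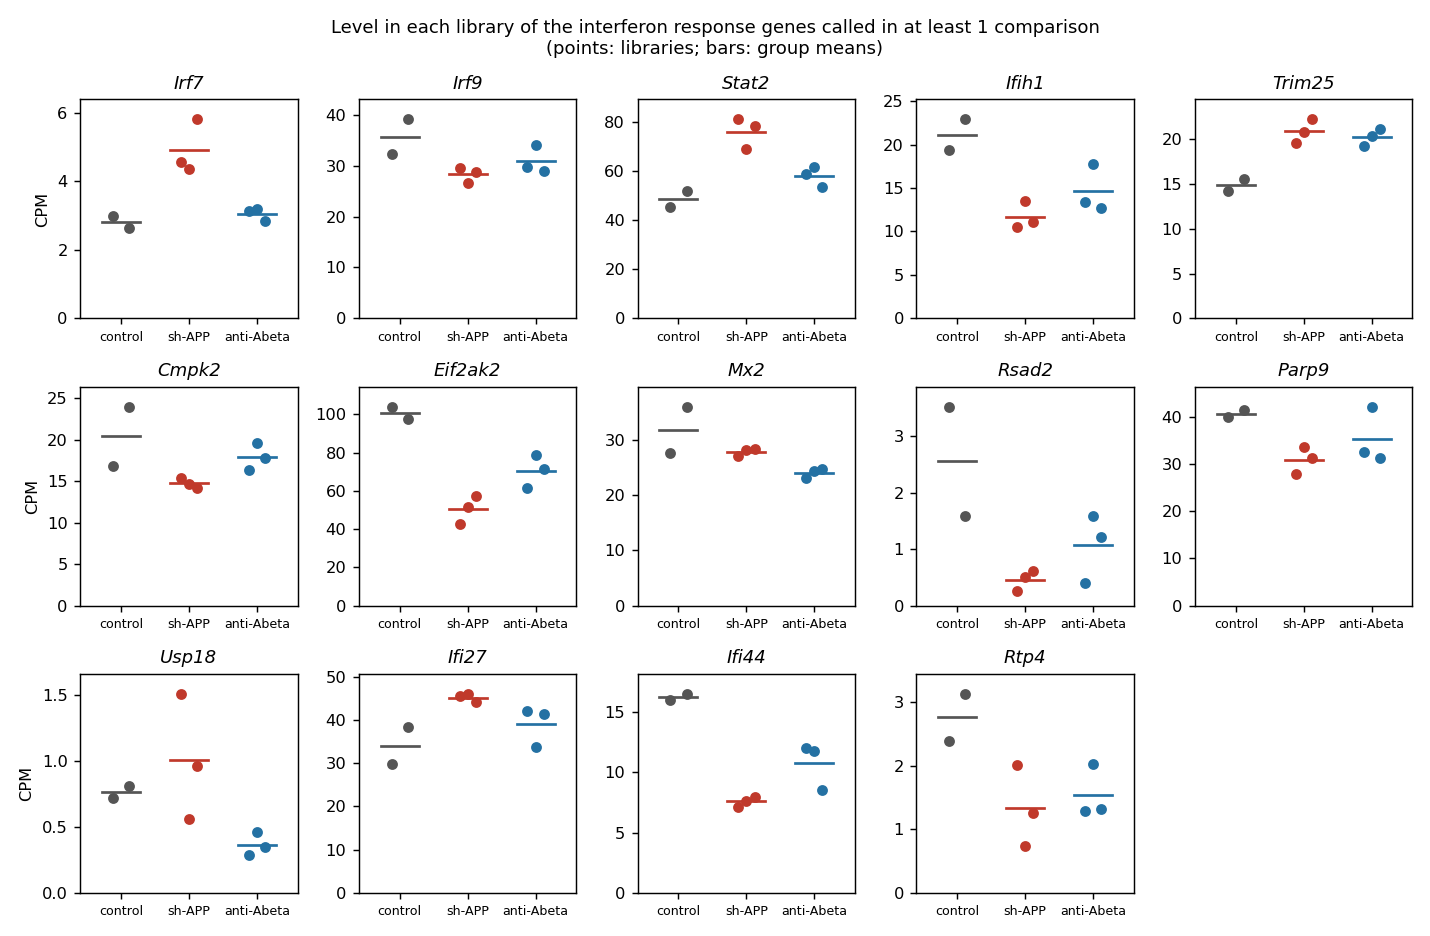
CPM (y axis, from 0) in each library of the 14 interferon response genes called in at least 1 comparison, by group (x axis), with points for libraries and bars for group means. Control, anti-Abeta and sh-APP do not overlap for Eif2ak2 and Ifi44, in falling order, nor for Stat2, in rising order, while the control libraries of Rsad2 and Cmpk2 lie far apart.

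The second comparison asks what the antibody against amyloid beta changed. Of the 32 tested genes, 1 rose (Trim25) and 4 fell (Eif2ak2, Ifi44, Ifih1 and Mx2), or 15.6%, against 29.2% of all tested genes (12.7% higher and 16.6% lower). Their median log2 fold change was -0.19, against 0.03 over all genes. Ranges did not overlap for 14 genes, 4 higher and 10 lower, against 54.9% of all tested genes (27.9% higher and 27.0% lower). Eif2ak2 fell by 0.52 ± 0.12 (adjusted p = 0.0108, edgeR), Ifi44 by 0.60 ± 0.16 (0.0163) and Ifih1 by 0.53 ± 0.17 (0.0319), and Trim25 rose by 0.45 ± 0.11 (0.0139). These 4 genes were also called in sh-APP, but the comparisons share the control libraries. Mx2, at 23.1, 24.5 and 24.8 CPM below both control libraries, fell by 0.40 ± 0.12 (adjusted p = 0.0233, edgeR). With library totals alone 2 rose and 2 fell, while the share of higher among all called genes went from 43.4% to 71.7% and the median of all genes moved by 0.15. With upper-quartile factors 2 rose and 4 fell, and in both Stat2 was the added call.

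All 5 antibody calls depended on the control pair. Without control replicate 1 the calls of Eif2ak2 (adjusted p = 0.109, range 0.000809 to 0.109), Trim25 (0.144, range 0.00291 to 0.144), Ifi44 (0.0957, range 0.00246 to 0.0957) and Ifih1 (0.0925, range 0.00447 to 0.217) were lost. Without control replicate 2 those of Ifi44 (0.0810), Ifih1 (0.217) and Mx2 (log2 fold change -0.20, adjusted p = 0.283, range 0.00562 to 0.283) were lost. Ifih1 also lost its call without anti-Abeta replicate 1 (0.0877) or 3 (0.102) and with library totals alone (0.0752), and Mx2 without anti-Abeta replicate 1 (0.0635) and with library totals alone (0.123). Stat2 had 0.26 ± 0.10 (adjusted p = 0.0714, edgeR) and passed with upper-quartile factors (0.0362) and library totals alone (0.00846), over a range of 0.00846 to 0.459. Irf7 had 0.11 ± 0.21 (0.740), Irf9 -0.21 ± 0.11 (0.197), Ddx58 -0.23 ± 0.14 (0.241) and Dhx58 0.31 ± 0.40 (0.603). Rsad2 had -1.24 ± 0.54 (0.103), with all 3 libraries at or below the lower control value. Parp9, at -0.20 (0.270), passed only without anti-Abeta replicate 2 (-0.36, adjusted p = 0.0216, range 0.0216 to 0.759), the library that stood apart. Parp14, at -0.43 ± 0.19 (0.115), likewise passed only without it (-0.61, adjusted p = 0.0273, range 0.0273 to 0.338).

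The hairpin and the antibody were compared directly. Of the 32 genes, Stat2, Irf7 and Usp18 were higher in sh-APP than in anti-Abeta and Eif2ak2 and Ifi44 were lower, or 15.6%, against 26.1% of all tested genes (10.1% higher and 16.0% lower). Ranges did not overlap for 9 genes, 5 higher and 4 lower, against 41.3% of all tested genes (19.2% higher and 22.1% lower). Stat2 differed by 0.39 ± 0.09 (adjusted p = 0.00781, edgeR) and Eif2ak2 by -0.48 ± 0.11 (0.00941), both under all alternatives. Ifi44 differed by -0.50 ± 0.15 (0.0258), a call lost without sh-APP replicate 1 (0.0871), 2 (0.0556) or 3 (0.0530) or anti-Abeta replicate 1 (0.0857) or 2 (0.0989), over a range of 0.00527 to 0.0989. Irf7 differed by 0.69 ± 0.19 (0.0181), a call lost without sh-APP replicate 3 (0.0886) or anti-Abeta replicate 3 (0.0501), over a range of 0.00680 to 0.0886.

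Usp18, the protease that removes Isg15 and blocks the receptor, stood at 1.51, 0.557 and 0.961 CPM in sh-APP and at 0.285, 0.465 and 0.346 in anti-Abeta, with control between at 0.723 and 0.810. Its sh-APP libraries spread on both sides of control while all anti-Abeta libraries lay below it. The difference was 1.45 ± 0.47 (adjusted p = 0.0398, edgeR), with an adjusted p of 0.0216 to 0.197 over 17 alternatives. It was lost with limma-voom (0.0708), with the replicate block (0.0652) and without any 1 library other than sh-APP replicate 2 (0.0534 to 0.197). Trim25 (0.05 ± 0.10, adjusted p = 0.781) and Ddx58 (-0.01 ± 0.13, 0.982) had the smallest differences among the sensors. Rsad2 (-1.22 ± 0.53, 0.113) passed only without anti-Abeta replicate 1 (-1.60, adjusted p = 0.0320, range 0.0320 to 0.348).

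The steps upstream of the response genes were described from 3 further lists. Of 11 interferon ligand genes 10 were in the table, and 8 of them, Ifnb1 and Ifng included, had 0 counts in all libraries, which allows a level of up to 0.00906 CPM over the libraries together (3 counts, counting error only). Ifnk had 1 count and Ifne 12. Of 21 receptor and JAK-STAT genes, all tested, 6 rose and 5 fell in sh-APP, with a median log2 fold change of 0.12, where 53.7% of all tested genes were called. Socs3, a feedback inhibitor of JAK kinases, rose from 72.5 and 88.7 CPM to 167, 152 and 160 in sh-APP (0.99 ± 0.10, adjusted p = 1.41e-05, edgeR), and to 106, 125 and 125 in anti-Abeta (0.56 ± 0.10, 0.00377). Socs1, of the same family, rose by 1.16 ± 0.28, Stat3 by 0.35 ± 0.07 and the phosphatase Ptpn11 by 0.33 ± 0.08 in sh-APP. The genes that fell by the naming rule were Irf2, a repressor of interferon genes (-0.73 ± 0.10), the kinase Jak2 (-0.70 ± 0.10), the phosphatase Ptpn2 (-0.69 ± 0.09) and Pias1 (-0.37 ± 0.10), the last lost without control replicate 1 (adjusted p = 0.109) and with library totals alone (0.180), over a range of 0.00167 to 0.180.

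In anti-Abeta 2 genes of that list rose (Socs3 and Tyk2) and 5 fell, those named being Irf2 (-0.50 ± 0.10), Jak2 (-0.53 ± 0.10) and Ptpn2 (-0.43 ± 0.09), with a list median of -0.12 and 29.2% of all genes called. Without control replicate 1 the calls of Socs3 (adjusted p = 0.0749, range 3.38e-05 to 0.0749), Irf2 (0.0522, range 3.14e-05 to 0.0522), Jak2 (0.0550, range 5.41e-05 to 0.0550) and Ptpn2 (0.0707, range 0.000141 to 0.0707) were lost. Tyk2 (0.33 ± 0.11) lost its call in 4 settings, with an adjusted p of up to 0.272. Between the arms 2 genes of the list were higher in sh-APP, Socs3 (0.43 ± 0.09) and Ptpn11 (0.31 ± 0.07), under all alternatives, and Ptpn2 was lower (-0.26 ± 0.08, adjusted p = 0.0305, edgeR). The Ptpn2 call was lost in 9 settings, among them without either control replicate, sh-APP replicate 1 or 2, or anti-Abeta replicate 1 or 2, over a range of 0.0183 to 0.132. Over all tested genes 26.1% were called between the arms.

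Of 18 tested genes of nucleic acid sensing, 6 rose and 6 fell in sh-APP (median -0.14), beside 53.7% called among all genes, and the 8 calls named next held under all alternatives. Tank, a scaffold of the kinases that activate interferon factors, fell by 1.19 ± 0.14, the kinase Tbk1 itself by 0.77 ± 0.08, the receptor Tlr4 by 1.61 ± 0.22 and the ligase Rnf125 by 0.64 ± 0.09. Those that rose were the DNA exonuclease Trex1 (0.78 ± 0.13), the mitochondrial regulator Nlrx1 (0.61 ± 0.13), the RNA editor Adar (0.46 ± 0.10) and the adaptor Mavs (0.43 ± 0.09). Tbk1 stood at 153 and 159 CPM in control, at 88.8, 95.2 and 90.0 in sh-APP, and at 116, 133 and 112 in anti-Abeta, with no overlap among groups. In anti-Abeta, where 29.2% of all genes were called, 2 rose (Adar and Trex1) and 4 fell, Tank by 0.65 ± 0.14, Tlr3 by 0.71 ± 0.20, Tbk1 by 0.38 ± 0.08 and Rnf125 by 0.30 ± 0.09. Each of these 6 calls was lost without control replicate 1, with adjusted p of 0.173 for Adar, 0.228 for Trex1, 0.102 for Tank, 0.104 for Tlr3, 0.0629 for Tbk1 and 0.122 for Rnf125. Between the arms (26.1% of all genes called) 3 genes were higher and 4 lower in sh-APP, and Tlr4 (-1.12 ± 0.20), Tbk1 (-0.39 ± 0.08) and Tank (-0.54 ± 0.13) were lower under all alternatives.

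Of 52 tested further interferon-stimulated genes, 17 rose and 9 fell in sh-APP, with a median log2 fold change of 0.26, beside shares of 25.8% higher and 27.9% lower over the whole table. Ifitm3, a membrane protein that blocks virus entry, stood at 110 and 125 CPM in control, at 245, 239 and 235 in sh-APP, and at 128, 131 and 133 in anti-Abeta. It rose by 1.03 ± 0.08 in sh-APP (adjusted p = 4.08e-06, edgeR) and differed between the arms by 0.87 ± 0.07 (3.71e-05). Ifitm2, its relative, rose by 0.64 ± 0.07, Tor3a by 0.64 ± 0.10 and Lgals3bp by 0.57 ± 0.09. Those that fell by the same rule were Pnpt1, an exoribonuclease that degrades RNA in mitochondria (-1.37 ± 0.10), B2m, the light chain of MHC class I (-0.94 ± 0.08), Slfn13 (-0.89 ± 0.13) and the antibody receptor Trim21 (-0.86 ± 0.14). All 8 held in sh-APP under the alternatives.

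Pnpt1 stood at 170 and 180 CPM in control, at 61.7, 73.9 and 67.2 in sh-APP, and at 99.5, 115 and 93.7 in anti-Abeta, so that the 3 groups did not overlap. It fell in anti-Abeta by 0.77 ± 0.10 (adjusted p = 0.00226, edgeR), also under all alternatives. In anti-Abeta 5 genes of that list rose and 5 fell (median 0.11), with 29.2% called over all genes. Besides Pnpt1 those named were B2m (-0.48 ± 0.08; lost without control replicate 1, adjusted p = 0.0518) and Trim21 (-0.70 ± 0.14; lost without control replicate 2, 0.0535), and among those that rose Pml, Ifi30, Ifitm2 and Lgals3bp, by 0.26 to 0.49, all lost without control replicate 1 or 2. The chemokine gene Cxcl9, also named by the rule, had 12 and 9 counts in control, 15, 10 and 20 in sh-APP, and 0, 2 and 2 in anti-Abeta, and DESeq2 gave it no adjusted p in anti-Abeta against control. Between the arms 9 genes of the list were higher in sh-APP and 4 lower, with 26.1% called over all genes.

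**Figure D3:**
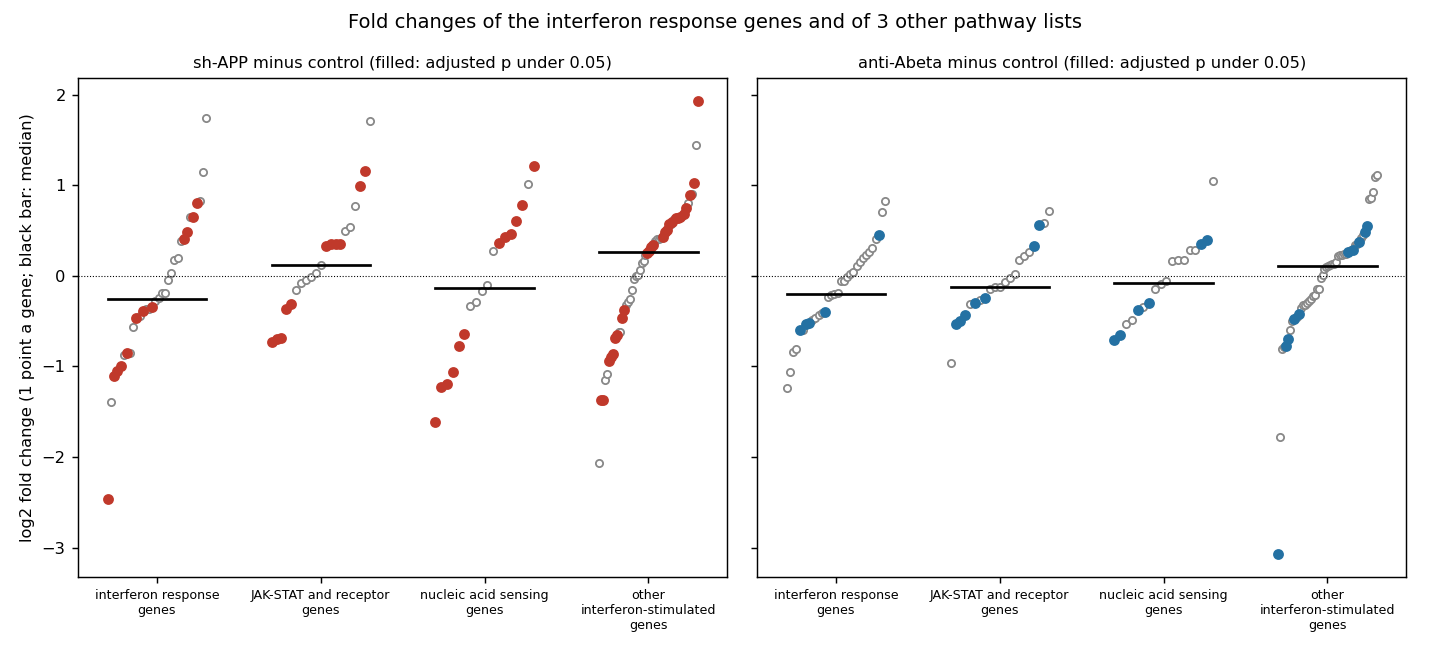
Log2 fold change (y axis) of each tested gene of the 38-gene interferon response list and of 3 further lists (x axis), for sh-APP minus control (left) and anti-Abeta minus control (right), with filled points past an adjusted p of 0.05 and black bars for medians. In sh-APP the medians are -0.26, 0.12, -0.14 and 0.26 from left to right, and each list holds called genes on both sides of 0.

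**Figure D4:**
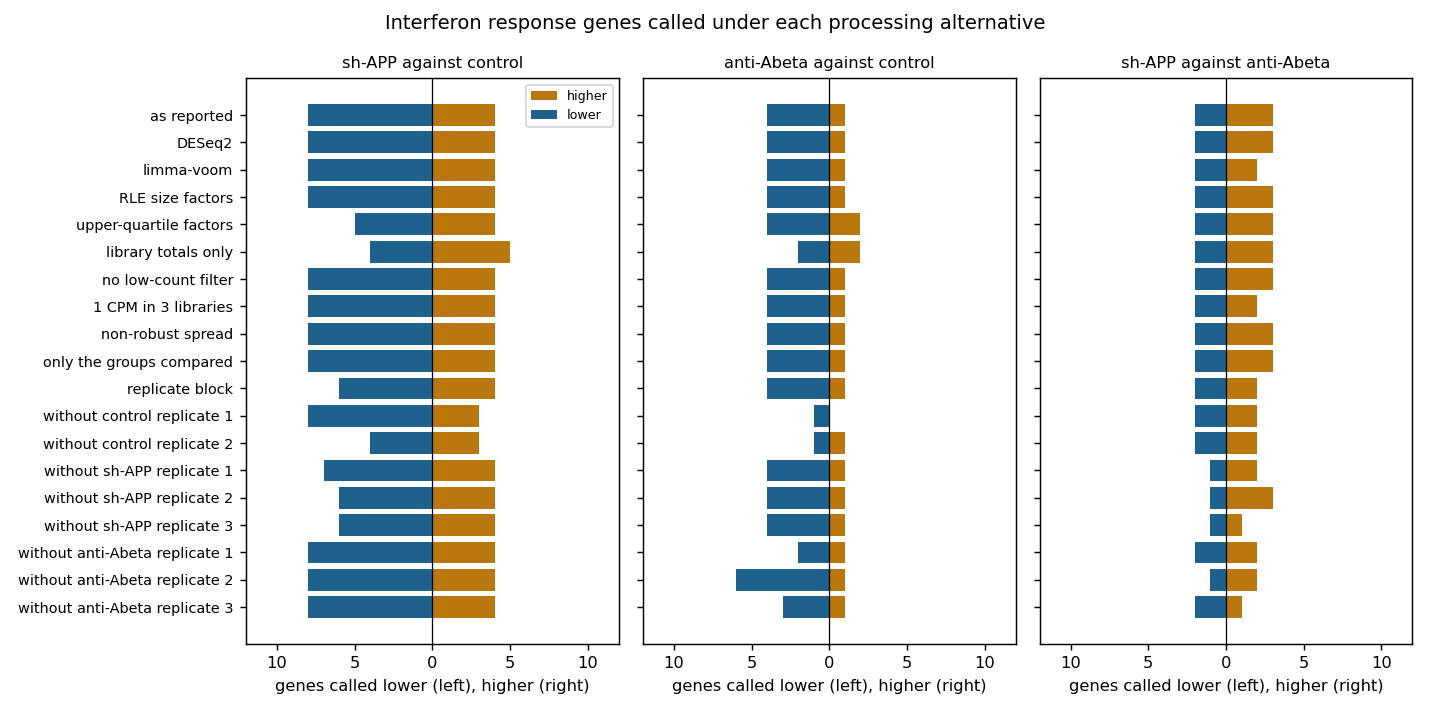
Number of interferon response genes called higher (right) and lower (left) in each comparison (panels) under each way of processing (y axis). In sh-APP against control 8 genes are lower as reported, 5 with upper-quartile factors and 4 with library totals only or without control replicate 2, and in anti-Abeta against control 1 is lower without either control replicate.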

How the data were processed

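RNA-seq of rat astrocytes was taken from a deposited table of raw counts per gene symbol for 8 libraries. All values are whole numbers and totals differ between libraries. The submitters' processing notes list STAR 2.6.0a, HTSeq 0.11.1, Trimmomatic 0.36, DESeq2 1.24.0, SAMtools 1.9, FastQC 0.11.7 and build rn6, with no role or setting. Strandedness is not given in the sources consulted, so reads of overlapping genes (9 of the 32 tested members) cannot be separated, nor those of close copies such as the Oas1, Mx and Gbp genes.

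A single edgeR model (version 4.0.16, R 4.3.3) held all 8 libraries with a term for group, leaving 5 residual degrees of freedom. The low-count filter was filterByExpr (minimum count 10, minimum total 15), scaling was by TMM and the test was the robust quasi-likelihood test, with Benjamini-Hochberg adjustment over 14445 genes and a threshold of 0.05. The SE was taken as the absolute log2 fold change over the root of the F statistic. On simulated counts, sh-APP against control, tested over 14189 genes, calls reached 47.7% of those set to 1.5-fold, 76.1% of those at 2-fold and 81.0% of those at 4-fold, with 8 false calls. Only 65, 67 and 63 genes were set to change at these folds, while 53.7% of tested genes were called in the data. Detection and false calls were not tested with so large a share changed, so these rates may not carry over. Per gene counting error is small at these totals, except for genes with few counts, so precision is set by how far libraries of a group differ.

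Members and lists were chosen with earlier results of these data known. All members are accounted for. Values in every library are given for called members, the 3 transcription factors and 3 sensors, and from each further list up to 4 called genes a direction with the smallest p are named; others named were picked after their values were seen (Gbp4, Gbp5, Isg15, Parp14, Dtx3l, Herc6, Igtp, Ifi44l and Sp110). Some genes of the further lists are counted but not reported here by name. Alternatives were DESeq2 1.42.0, limma-voom (limma 3.58.1), RLE, upper-quartile and no factors, no low-count filter, 1 CPM in 3 libraries, the non-robust spread, only the groups compared, the replicate block, and each library left out. The correlation of deviations between same-numbered libraries ran from -0.0106 to 0.105 over 7 pairs, and was over 0.1 in 1 pair, so the numbers were not taken to pair the libraries.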

Additional observations from a re-analysis of the deposited data

How the results depend on the processing

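Over 18 alternatives no called member changed direction. DESeq2, limma-voom, RLE factors, both filters, the non-robust spread and fits of only the groups compared kept each count within 1.5 times. Members lower in sh-APP against control numbered 8 as reported, 5 with upper-quartile factors and 4 with library totals only. In anti-Abeta against control 2 were higher (1 as reported) with upper-quartile factors and with library totals only, and 2 were lower (4 as reported) with library totals only. With 1 library left out, members higher and lower numbered 3 to 4 and 4 to 8 in sh-APP against control, 0 to 1 and 1 to 6 in anti-Abeta against control, and 1 to 3 and 1 to 2 in sh-APP against anti-Abeta. Leaving out control replicate 2 gave 4 lower in sh-APP, either control replicate gave 1 lower in anti-Abeta, and anti-Abeta replicate 1 gave 2. Control replicate 1 took the call of the 1 higher in anti-Abeta. Between the arms 1 was higher without sh-APP or anti-Abeta replicate 3, and 1 was lower with sh-APP replicate 1, 2 or 3 or anti-Abeta replicate 2 left out. A lone control library is assumed to vary like the other groups. The replicate block gave 4 higher and 6 lower in sh-APP against control, 1 and 4 in anti-Abeta against control, and 2 and 2 in sh-APP against anti-Abeta. The numbers are not shown to pair the libraries: sh-APP replicates 1 and 2 correlated best with their own number in anti-Abeta (0.105 and 0.0984) and replicate 3 did not (-0.00562). Over all tested members, comparisons and alternatives, 51 calls were lost and 9 gained. Genes with few counts, such as Mx1, Ifi47, Oasl and Bst2, limit what the depth can show.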
